A study of Homo sapiens with 3 samples.

Results

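The 9 genes described here are MLXIP and MLX, which encode the glucose-sensing transcription factor MondoA and its partner, the α-arrestin genes TXNIP, ARRDC1, ARRDC2, ARRDC3 and ARRDC4, and the glucose transporter genes SLC2A1 and SLC2A3. They were picked by name from the 17329 genes of the table, and all 9 had a value in all 3 libraries. Jurkat, a human T-lineage acute leukaemia line, was grown for 48 hours with 50 mM sodium oxamate (the oxamate library), with 50 mM sodium oxamate plus 10 mM L-sodium lactate (oxamate+lactate), or in standard medium (control). All 3 conditions had RPMI medium with fetal bovine serum as their base, and polyadenylated RNA was sequenced with ERCC spike-in RNA added after extraction. Oxamate is a pyruvate analogue that inhibits lactate dehydrogenase, and the series asked how lactate and histone lactylation bear on transcription. There was 1 library per condition, with no replicate against which to check a difference and no label on how many cultures it came from, so no p-value is given, and "higher" and "lower" compare libraries. Fewer cells and less RNA per cell cannot be told apart in such bulk samples.

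MondoA is held in the cytoplasm until glucose 6-phosphate and related sugar phosphates accumulate. It then enters the nucleus with MLX and binds carbohydrate response elements, which are pairs of E-box-like hexamers with a short spacer, in promoters such as those of TXNIP and ARRDC4. TXNIP and ARRDC4 proteins lower glucose uptake by drawing transporters such as GLUT1, the product of SLC2A1, from the cell surface. The α-arrestins are adaptors that bring ubiquitin ligases of the NEDD4 family to membrane proteins.

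The deposited values are read counts normalized by the authors, and the number of reads per library is not stated, so depth is unknown. The sum over genes was 8821115 in oxamate, 8171633 in oxamate+lactate and 8220199 in control. Ratios are log2 ratios of the values plus a pseudocount of 1. They were taken over the 12292 genes that averaged 50 or more in the 3 libraries, called genes over the floor below, and all 9 genes were among them. For oxamate against control these genes had a median ratio of 0.08 and an SD of 0.38. The median was -0.09 with an SD of 0.19 for oxamate+lactate against oxamate, and -0.01 with an SD of 0.31 for oxamate+lactate against control. Over 18 spike-in RNAs averaging 100 or more, the SD was 0.13, 0.11 and 0.19 in the same 3 comparisons, which reflects handling after extraction and not the spread between cultures. Of the markers of the labelled cell type, 12 of 12 T-lineage markers had counts in every library. Their sum was 18585 in oxamate, 16752 in oxamate+lactate and 15952 in control, and the lowest was the costimulatory receptor CD28, at 66, 20 and 3. Of 17 markers of other cell types, 6 had a value, each with counts in every library, so having counts does not by itself set the cell type. These 6 summed to 384, 350 and 414 in the same order. The highest was the collagen gene COL1A1, at 202, 165 and 202, above the T-lineage marker CD2 (166, 168 and 128) in oxamate and control.

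The windows around the annotated starts were searched for E-box-like letters, of the kind MondoA and MLX bind, and for CCAAT. RefSeq windows of 250 bases before to 50 bases after a start (build GRCh38.p14, whereas the files' genome build is hg19) were found for 8 of the 9 genes, with 11 windows in all. The 3 below belong to TXNIP (chr1:145996530-145996829, minus strand), ARRDC4 (chr15:97960453-97960752, plus strand) and ARRDC3 (chr5:91383268-91383567, minus strand), the first 2 of them known MondoA targets and the third the gene of the 9 with the ratios farthest from 0 in both comparisons with control. All run 5′ to 3′ in the direction of transcription, and capitals mark matches, on either strand, to CACGTG (an E-box), to both hexamers of an element made of CACGNG, any 5 bases and CACGNG again (the paired E-box-like element) and to CCAAT (the CCAAT box).
TXNIP: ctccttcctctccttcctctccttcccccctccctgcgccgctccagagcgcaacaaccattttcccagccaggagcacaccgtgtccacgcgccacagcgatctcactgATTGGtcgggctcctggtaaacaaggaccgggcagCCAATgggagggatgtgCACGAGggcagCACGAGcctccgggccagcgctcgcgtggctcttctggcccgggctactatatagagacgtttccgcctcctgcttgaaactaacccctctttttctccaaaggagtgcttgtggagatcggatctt
ARRDC4: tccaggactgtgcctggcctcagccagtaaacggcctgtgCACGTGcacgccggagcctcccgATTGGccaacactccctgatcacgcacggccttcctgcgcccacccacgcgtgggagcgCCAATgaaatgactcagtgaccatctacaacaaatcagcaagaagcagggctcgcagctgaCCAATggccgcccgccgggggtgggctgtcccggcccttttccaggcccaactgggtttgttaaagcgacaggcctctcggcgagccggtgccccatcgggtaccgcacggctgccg
ARRDC3: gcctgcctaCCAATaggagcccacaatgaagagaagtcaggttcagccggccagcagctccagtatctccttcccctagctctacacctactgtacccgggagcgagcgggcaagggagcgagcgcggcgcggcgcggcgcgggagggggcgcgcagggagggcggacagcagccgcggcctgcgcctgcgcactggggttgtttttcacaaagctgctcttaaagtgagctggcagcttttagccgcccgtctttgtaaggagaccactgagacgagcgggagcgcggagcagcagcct

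TXNIP was the only one of the 8 genes whose windows matched the paired element, as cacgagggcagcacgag, at positions -88 to -72 from the start. The letters of this motif were written with the TXNIP element known, so the match in TXNIP is no finding, but its rarity is a measured fact: 20 of 35116 RefSeq windows of the same length held it, or 0.0570%. A single E-box, which 7.26% of the windows held, was found in ARRDC4, at positions -210 to -205, and in MLX, at -50 to -45. The CCAAT box was common, in 34.6% of all windows and in 8 of the 11 windows of these genes, 1 window for each of the 8 genes. It had 3 matches in ARRDC4 and 2 in TXNIP. ARRDC3 had 1 CCAAT box in the window shown and none of the 3 motifs in the window of its other start (chr5:91380048-91380347). A match is a string of letters and not a shown binding site. Its absence covers only these windows and these exact letters, so other forms of a carbohydrate response element could be missed.

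**Figure D1:**
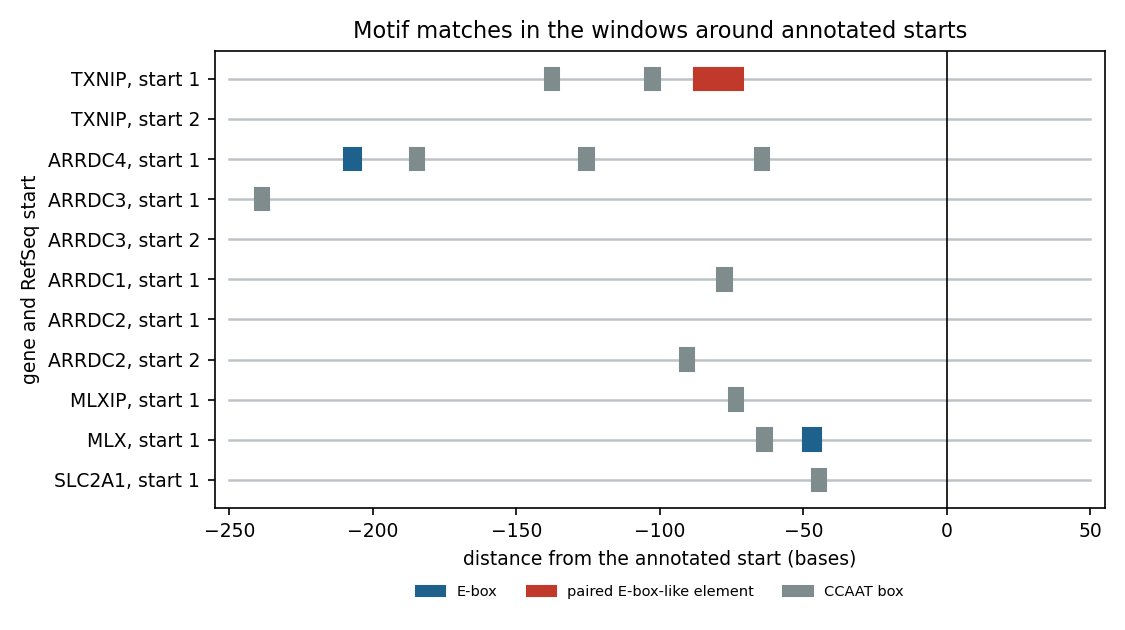
Positions of the motif matches in the 11 RefSeq windows of 8 genes, by distance in bases from the annotated start (x axis); each grey line is a window, and boxes are matches to the E-box (blue), the paired E-box-like element (red) and the CCAAT box (grey). The paired element appears only at the first TXNIP start, and ARRDC4 and MLX each have 1 E-box.

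The 2 transcription factor genes differed from control in opposite directions in the oxamate library. MLXIP, encoding MondoA, had 2371 normalized counts in oxamate, 1767 in oxamate+lactate and 1536 in control. Its highest value was in oxamate, 1.54-fold over control (log2 ratio 0.63), and the oxamate+lactate value lay nearer to control (0.20 against control and -0.42 against oxamate). In oxamate against control its ratio ranked 772 from the highest of the 12292 genes. MLX, encoding the dimer partner, had 624 in oxamate, 616 in oxamate+lactate and 694 in control. Both treated libraries were slightly below control for MLX, at -0.15 for oxamate and -0.17 for oxamate+lactate. Per kilobase of annotated exon, the level of MLXIP over that of MLX was 1.04 in oxamate, 0.789 in oxamate+lactate and 0.609 in control.

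Limits on these 2 genes come from scaling, base composition and overlap. MLXIP passed 1.5-fold in the values as deposited but not with libraries scaled to equal gene totals (log2 ratio 0.52), relative to the median of all genes (0.55) or relative to the median of its decile of GC content (0.43). The median ratio of oxamate against control was 0.27 in the decile of highest GC content and -0.07 in the lowest, and the longest MLXIP transcript has a GC content of 57.9%. The part of GC content in these ratios was not tested. MLX shares exon bases with PSMC3IP, which had 299 in oxamate, 313 in oxamate+lactate and 379 in control, and the libraries are not stranded, so reads from the shared bases could come from either gene.

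TXNIP, the most studied MondoA target, which also binds thioredoxin, had 515 normalized counts in oxamate, 717 in oxamate+lactate and 748 in control. The oxamate library stood alone at the low end, 1.45-fold below control (log2 ratio -0.54), and the value with lactate was close to control (-0.06, or 0.01 with libraries scaled to equal ERCC sums). In oxamate+lactate against oxamate the ratio was 0.48, and it ranked 78 from the highest of the 12292 genes, within the highest 1% of them. Against control the oxamate ratio was lower for only 4.64% of genes. The oxamate library enters both ratios, so a low value in it alone would give their opposite signs. TXNIP stayed under 1.5-fold in the values as deposited and passed it relative to the median of all genes (-0.62) and with equal gene totals (-0.64). It did not pass with equal ERCC sums (-0.53) or relative to the median of its GC decile (-0.55).

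ARRDC4, the other arrestin known as a MondoA target and likewise a brake on glucose uptake, had 87 normalized counts in oxamate, 113 in oxamate+lactate and 105 in control. Its order was that of TXNIP in so far as oxamate was lowest, with a log2 ratio of -0.27 for oxamate against control and 0.37 for oxamate+lactate against oxamate. The second of these ratios ranked 189 from the highest of the genes over the floor. ARRDC4 is a low gene here, and of the 4018 genes with a mean from 50 to 200 the ratios had an SD of 0.47 for oxamate against control and 0.24 for oxamate+lactate against oxamate. The oxamate library enters both of these comparisons, so a low value in it alone gives opposite signs.

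ARRDC3, an α-arrestin known for the ubiquitylation and trafficking of adrenergic receptors, had 113 normalized counts in oxamate, 127 in oxamate+lactate and 479 in control. Both treated libraries lay far below control, 4.21-fold for oxamate (log2 ratio -2.07) and 3.75-fold for oxamate+lactate (-1.91), and they differed little from each other (0.17). Of the 12292 genes, ARRDC3 ranked 7 from the lowest in oxamate against control and 2 from the lowest in oxamate+lactate against control. Both of these comparisons use the same control library. Relative to genes of like GC content it was still 4.01-fold and 3.51-fold lower, and the longest ARRDC3 transcript, at 37.6%, lies in the lowest GC decile. No exon of another annotated gene overlaps ARRDC3, and no 50-base stretch of its longest coding transcript occurs in transcripts of another gene.

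ARRDC1 and ARRDC2 were higher in the treated libraries. ARRDC2, among the less studied α-arrestins, had 332 normalized counts in oxamate, 308 in oxamate+lactate and 189 in control. Both treated libraries were above control, at log2 ratios of 0.81 and 0.70, which ranked 332 and 204 from the highest of the genes over the floor. ARRDC1, which helps to bud vesicles from the plasma membrane, had 515 in oxamate, 467 in oxamate+lactate and 363 in control. The same order was seen, with smaller ratios of 0.50 and 0.36 against control. The 2 genes are GC-rich, at 62.8% for ARRDC1 and 60.2% for ARRDC2, and relative to genes of like GC content the ratios of oxamate against control were 0.24 for ARRDC1 and 0.60 for ARRDC2. Overlapping antisense or other annotated genes were found at both (ARRDC1-AS1 and AL590627.2 at ARRDC1, AC020904.3 at ARRDC2), so part of their reads may belong to these.

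**Figure D2:**
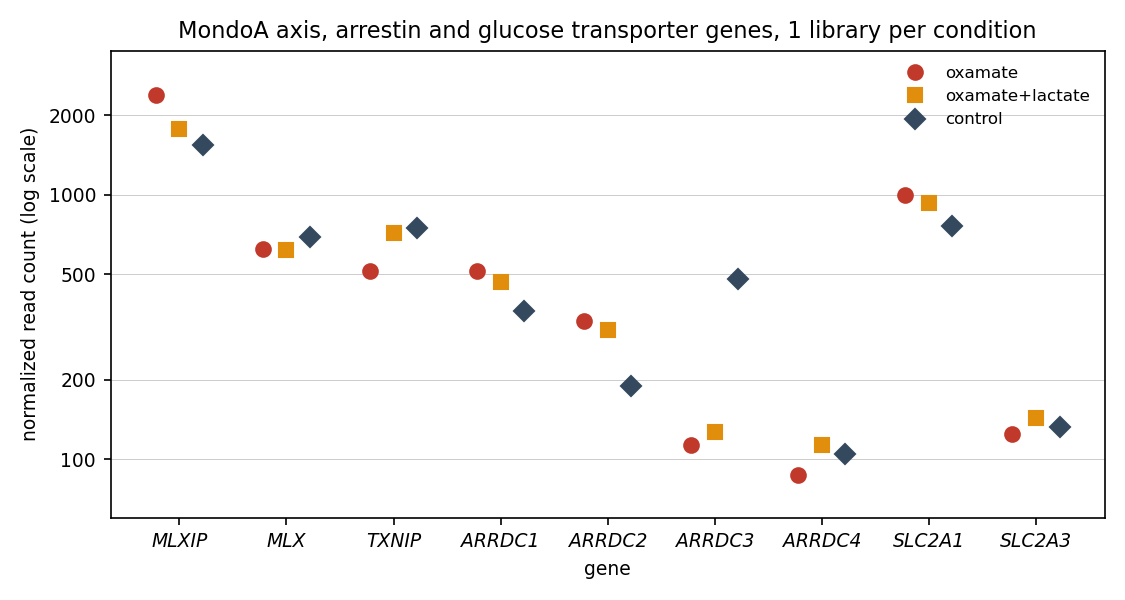
Normalized read counts (log scale) of the 9 genes in the oxamate (red circles), oxamate+lactate (orange squares) and control (dark diamonds) libraries, 1 library each and hence no error bars. ARRDC3 is at 113 and 127 in the treated libraries and 479 in control, while TXNIP is low in oxamate alone (515, against 717 in oxamate+lactate and 748 in control).

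Divided by annotated exon length, the 5 α-arrestins summed to about the same level in each library, with a changed make-up. The sum of normalized counts per kilobase was 646 in oxamate, 680 in oxamate+lactate and 666 in control. ARRDC3 held 4.18% of this sum in oxamate, 4.46% in oxamate+lactate and 17.2% in control. ARRDC2 held 17.4%, 15.4% and 9.64% in the same order of libraries, and ARRDC1 held 50.3%, 43.3% and 34.4%. The share of TXNIP was 24.8% in oxamate, 32.8% in oxamate+lactate and 35.0% in control, so TXNIP stood behind ARRDC1 in both treated libraries and narrowly ahead of it in control. ARRDC4 held 3.31%, 4.08% and 3.87%, the lowest share in every library. Per kilobase, ARRDC3 stood at 0.239 times the level of ARRDC2 in oxamate, 0.290 times in oxamate+lactate and 1.78 times in control. The shares were not corrected for GC content, which is high in ARRDC1 and ARRDC2 and low in ARRDC3, and its part in them was not tested.

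**Figure D3:**
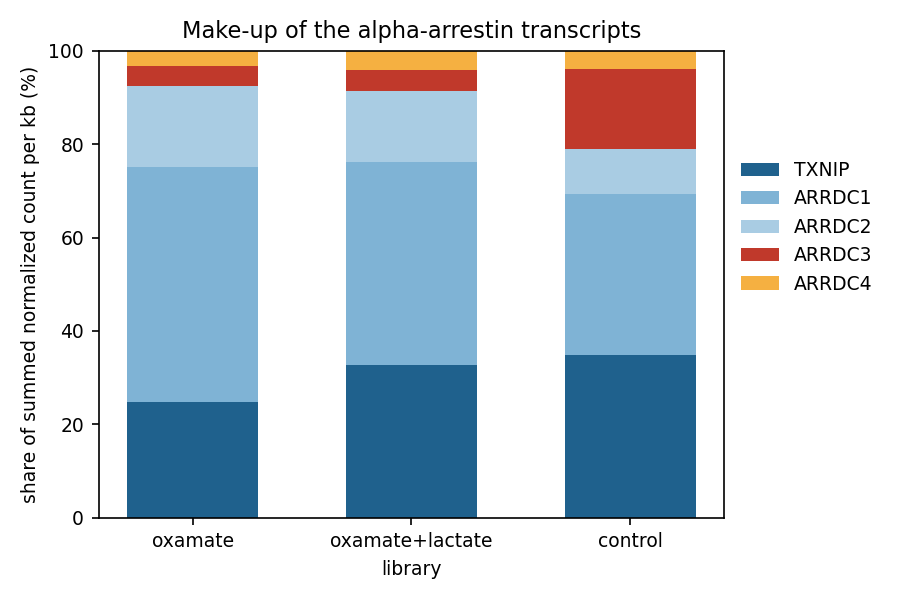
Share of each α-arrestin gene (in percent, y axis) in their summed normalized count per kilobase of exon, in the oxamate, oxamate+lactate and control libraries. The ARRDC3 segment is 4.18% and 4.46% in the treated libraries and 17.2% in control, and the ARRDC1 segment is largest in oxamate, at 50.3%. Shares are not corrected for GC content.

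Neither glucose transporter gene passed 1.5-fold in any of the 3 comparisons. SLC2A1, encoding GLUT1, the main glucose transporter of proliferating T cells, had 995 normalized counts in oxamate, 927 in oxamate+lactate and 762 in control. Both treated libraries were above control, at log2 ratios of 0.38 and 0.28, or 0.19 and 0.23 relative to genes of like GC content. SLC2A3, encoding the high-affinity transporter GLUT3, had 124 in oxamate, 143 in oxamate+lactate and 132 in control. Its ratios of -0.09 for oxamate and 0.11 for oxamate+lactate, both against control, are within the ERCC SD of each comparison, whereas the ratio of 0.20 for oxamate+lactate against oxamate is above that SD and ranked 741 from the highest of the genes over the floor. These are distances from 0, and the ERCC ratios had a median of 0 only for oxamate against control. Their median was -0.08 for oxamate+lactate against oxamate and -0.08 for oxamate+lactate against control. The ERCC SD holds no spread between cultures. Per kilobase, the level of SLC2A1 over that of SLC2A3 was 7.88 in oxamate, 6.37 in oxamate+lactate and 5.67 in control. SLC2A3 values are uncertain, because 24.1% of the 50-base stretches of its longest coding transcript also occur in transcripts of other genes, led by SLC2A14 and SLC2A3 pseudogenes. SLC2A1 shares exon bases with SLC2A1-AS1 and AC099795.1.

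Counted together, 3 of the 9 genes were at least 1.5-fold different in oxamate against control, where 11.5% of all genes over the floor were. MLXIP and ARRDC2 were higher, a direction in which 7.48% of all genes passed, and ARRDC3 was lower, as 3.98% were. The median of the 9 ratios was -0.09, against 0.08 for all genes over the floor, with 4 genes above 0 and 5 below it. With lactate added to oxamate, 0 of 9 genes passed 1.5-fold against oxamate (1.16% of all genes), and the median was -0.02, against -0.09. In oxamate+lactate against control 2 of 9 passed (6.05% of all genes), ARRDC2 higher (2.99%) and ARRDC3 lower (3.07%), and the median was 0.11, against -0.01. At 2-fold the only gene of the 9 was ARRDC3, lower in both comparisons with control, as were 0.879% of all genes for oxamate and 0.342% for oxamate+lactate. With so few genes and 1 library a condition, these counts describe the libraries.

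**Figure D4:**
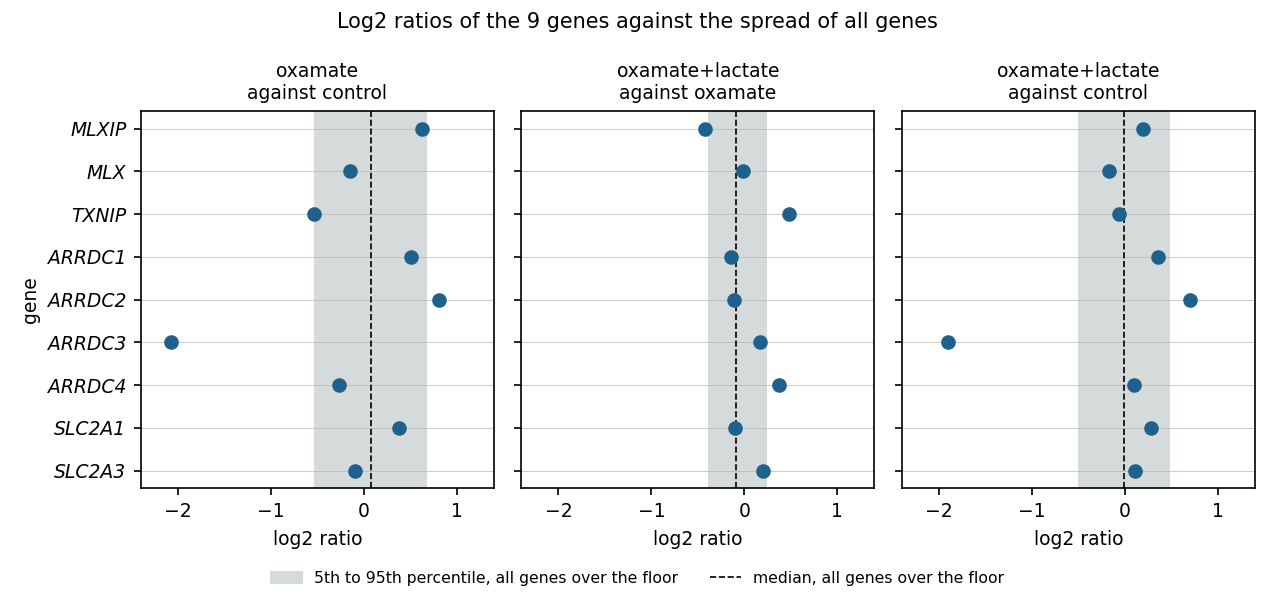
Log2 ratios (x axis) of the 9 genes in the 3 comparisons; grey bands are the 5th to 95th percentile of the 12292 genes over the floor and dashed lines their median. ARRDC3 lies far left of the band in both comparisons with control, ARRDC2 lies right of it in both, TXNIP (-0.54) lies just left of it in oxamate against control, and in oxamate+lactate against oxamate TXNIP (0.48) and ARRDC4 (0.37) lie right of it and MLXIP (-0.42) left of it.

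The wider pathway was described by 8 lists with 58 distinct genes, of which 41 were over the floor. In oxamate against control 5 of the 41 were at least 1.5-fold higher, as were 7.48% of all genes over the floor, and 1 was lower, as were 3.98%. The median was 0.08, as over all genes. Of the partners of MLX and MAX, 4 of 5 were over the floor, 3 were higher and 0 lower, against those same shares of 7.48% and 3.98% of all genes, and the median was 0.71. MXD4, a repressor that pairs with MAX and MLX, had 684 normalized counts in oxamate, 566 in oxamate+lactate and 325 in control, and its relatives MXD1 and MNT had ratios of 0.72 and 0.69 for oxamate against control. MGA, at 0.47, was the lowest of the list. MLXIPL, which encodes the MondoA paralogue ChREBP, was not analysed here.

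Among the other arrestin-fold genes, ARRB1, encoding β-arrestin 1, was the only one of 5 over the floor to pass 1.5-fold, with 262 normalized counts in oxamate, 211 in oxamate+lactate and 134 in control (0.96 for oxamate against control). The retromer subunit VPS26B, at 0.08, was the lowest, and the list median was 0.34. Of 7 HECT ubiquitin ligases with WW domains, the kind that binds α-arrestins, only NEDD4 passed, and it was lower. It had 356 in oxamate, 354 in oxamate+lactate and 547 in control, with the treated libraries almost equal (-0.62 and -0.63 against control). Relative to their GC deciles, NEDD4 and MNT, of the list above, no longer passed 1.5-fold in oxamate against control. The highest of these ligases was SMURF1, at 0.13, and their median was 0.03.

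Of 5 other sugar transporters over the floor, SLC2A6, encoding the lysosomal transporter GLUT6, was higher, with 264 normalized counts in oxamate, 206 in oxamate+lactate and 127 in control (1.05 for oxamate against control). The lowest was SLC2A11, at 139, 150 and 200 in the same order (-0.52), and the list median was -0.11. SLC2A11 passed 1.5-fold as a lower gene with equal gene totals, relative to the median of all genes and relative to its GC decile. In the values as deposited, no gene passed in the thioredoxin system (0 of 5, median 0.11), among the enzymes at glucose 6-phosphate (0 of 6, median 0.13), the other described MondoA targets (0 of 4, median 0.17) or the AMPK subunits (0 of 6, median -0.18). The thioredoxin system ranged from the mitochondrial thioredoxin gene TXN2, at -0.23 for oxamate against control, to the thioredoxin reductase gene TXNRD3, at 0.58. The AMPK subunits ranged from PRKAG1, at -0.33, to PRKAG2, at 0.26, both of which encode regulatory γ subunits. The other MondoA targets ranged from KLF10, a transcription factor, at -0.49 to PFKFB3, which makes an activator of phosphofructokinase, at 0.51, and KLF10 passed 1.5-fold as a lower gene with equal gene totals. Hexokinase HK2, both a glucose 6-phosphate enzyme and a described target, had 911 in oxamate, 826 in oxamate+lactate and 728 in control (0.32 for oxamate against control), the highest of the glucose 6-phosphate enzymes, and HKDC1, a hexokinase relative, was the lowest at -0.31. In oxamate+lactate against oxamate 0 of the 41 genes passed 1.5-fold (1.16% of all genes). In oxamate+lactate against control 3 were higher (MXD4, ARRB1 and SLC2A6, a direction in which 2.99% of all genes passed) and 1, NEDD4, was lower (3.07%), though NEDD4 did not pass with equal ERCC sums, and neither NEDD4 nor SLC2A6 passed relative to GC deciles.

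**Figure D5:**
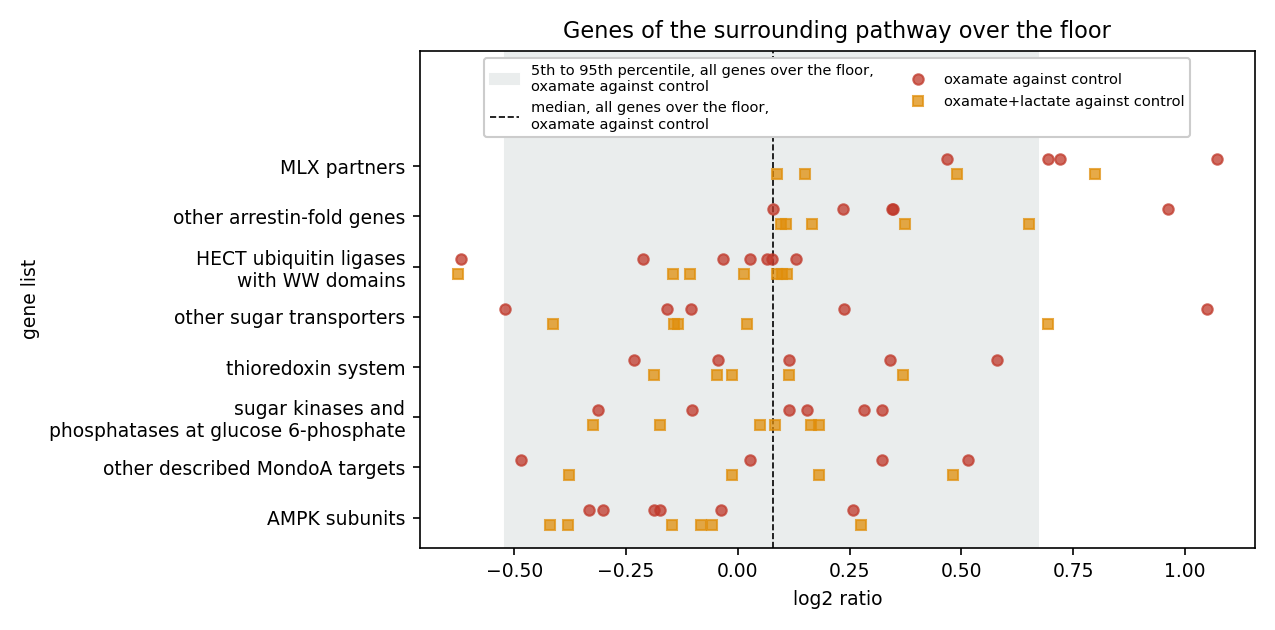
Log2 ratios (x axis) of the genes over the floor in the 8 lists (rows; HK2 is in 2 of them), for oxamate against control (red circles) and oxamate+lactate against control (orange squares), which share the control library. The grey band and dashed line give the 5th to 95th percentile and the median of all genes over the floor in oxamate against control. The red circles of MXD4, MXD1, MNT, ARRB1 and SLC2A6 lie right of the band and that of NEDD4 left of it. For the comparison of the orange squares the 5th and 95th percentiles, not drawn, were -0.49 and 0.48.

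The genes most like ARRDC3 were found by the distance between their pairs of log2 ratios against control, in oxamate and in oxamate+lactate, over 3 libraries. None lay within 0.1 of ARRDC3. The nearest were ATF5, a stress transcription factor, at a distance of 0.34, the asparagine synthetase gene ASNS at 0.49 and SPNS3 at 0.50. For ATF5 the ratio was -2.11 in oxamate and -1.57 in oxamate+lactate, and for ASNS it was -2.09 and -1.42, so both were nearer to control with lactate than ARRDC3 was. TXNIP had 19 genes within 0.1, the nearest being VAMP4 (0.04), KATNAL2 (0.05) and MEGF6 (0.05). ARRDC4 had 57 such genes and SLC2A3 had 255, of the 12292 over the floor. These counts follow how many genes have ratios of that size at all, and few lie as far from 0 as ARRDC3.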

How the data were processed

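Polyadenylated RNA from Jurkat cells was sequenced, 1 library per condition, with the groups taken from the treatment labels. Per the submitters' processing notes, the tools were FastQC 0.11.9, STAR 2.7.1a and HTSeq 0.11.2 and the build hg19, listed without their roles. How genes were annotated, filtered and normalized is not stated. The values, normalized counts that the authors deposited as whole numbers, were treated as a score and not as raw counts, since they were rounded after normalization, so no count model was run. The 36 ERCC rows were kept apart from the 17329 genes.

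Log2 ratios used a pseudocount of 1, which understates the change of low genes, and genes with a mean of at least 50. Genes at least 1.5-fold different were counted, without a test. The computation was tested on simulated libraries. Exon lengths, GC content, overlaps and shared 50-base stretches came from GENCODE 29 (another build, so no coordinates are used), and GC content was known for 91.3% of genes over the floor. Promoter windows came from RefSeq (GRCh38.p14). Python 3.11.15, pandas 2.3.3 and numpy 2.4.6 were used. The named genes are all 9 members, and from each list those past 1.5-fold in any comparison plus the highest and lowest in oxamate against control. The genes with the paired promoter element were named after their values were seen. Genes with the nearest ratios were taken for TXNIP, ARRDC3, ARRDC4 and SLC2A3, 3 for each. The members, lists and motifs were chosen with earlier results of these data known. Other scalings, pseudocounts, floors and folds were tried, and the comparison with genes of like GC content was added after seeing the data.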

Additional observations from a re-analysis of the deposited data

How the results depend on the processing

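No paired analysis was possible because each condition had 1 library, and for the same reason no library could be left out. Counts of the 9 genes past the threshold kept within 1.5 times in 25 of 30 repeats, also where the genes counted differed or a count of 0 stayed 0. Part of this was fixed in advance. All 9 genes were over the floor, so removing it could not change a count. A floor of 200 took out only ARRDC4 and SLC2A3, which did not pass 1.5-fold in any comparison. With libraries scaled to equal gene totals, which shifts the all-gene median by -0.10 for oxamate against control and 0.11 for oxamate+lactate against oxamate, TXNIP was the 1 gene past 1.5-fold in oxamate+lactate against oxamate (log2 ratio 0.59), where 0.952% of all genes passed. At a threshold of 2-fold the count was 1 for oxamate against control and 1 for oxamate+lactate against control, ARRDC3 in each. At a lower threshold, 0.32 on the log2 scale, it was 6 for oxamate against control and 3 for oxamate+lactate against oxamate, where 34.9% and 11.2% of all genes passed. The count of 3 in oxamate against control held MLXIP, ARRDC2 and ARRDC3 as deposited, and TXNIP in place of MLXIP with equal gene totals and with ratios centred on the all-gene median. Of the 162 repeats of single ratios, 152 moved by less than the ERCC SD and 0 reversed a ratio past 1.5-fold. The 10 that moved by more were all relative to GC deciles, for MLXIP, MLX, ARRDC1, ARRDC2 and SLC2A1. Scaling and centring move all genes about alike and by far less than 1.5-fold, so the lack of reversals was largely fixed in advance. Ratios near 0 changed sign for MLX, ARRDC2 and SLC2A1 in oxamate+lactate against oxamate and for TXNIP in oxamate+lactate against control. ARRDC3 ranged from -2.18 to -1.99 for oxamate and from -1.91 to -1.81 for oxamate+lactate, both against control. Of the 41 pathway genes, the 5 higher and 1 lower in oxamate against control became 5 and 3 with equal gene totals (KLF10 and SLC2A11 added as lower), 5 and 2 relative to the median (SLC2A11 added) and 4 and 1 relative to GC deciles (MNT lost, and SLC2A11 in place of NEDD4). Depth is unknown, which limits the genes with low values, ARRDC4, SLC2A3 and, in both treated libraries, ARRDC3.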

Other observations

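The paired E-box-like element found in the TXNIP promoter also occurred in windows of other genes, a set looked up after the values had been seen. Of the 20 genes with a match, 13 were over the floor, and TXNIP was 1 of them. In oxamate+lactate against oxamate the other 12 had log2 ratios from -0.21 to 0.26 with a median of -0.06, and TXNIP, at 0.48, lay above this range. In oxamate against control the other 12 ranged from -0.79 to 0.92, with a median of 0.03 against 0.08 for all genes, and 1 was at least 1.5-fold higher and 1 lower (7.48% and 3.98% of all genes). The higher one was RCN3, with 69 normalized counts in oxamate, 65 in oxamate+lactate and 36 in control. The lower one was TIGD1, a transposase-derived gene, with 120 in oxamate, 115 in oxamate+lactate and 208 in control. Of the other 12, MYL5, P4HA1, GFPT1 and TCEAL4 had their lowest value in oxamate, as TXNIP did. In that order of genes, the ratios were -0.42, -0.40, -0.37 and -0.16 for oxamate against control. They were 0.26, 0.20, 0.12 and 0.18 for oxamate+lactate against oxamate. AKAP10, HSPBAP1, KCTD5, PPP2R3C, RAN and RCN3 had their highest value in oxamate, PPP2R3C by only 254 against 253 in control. STX12 and TIGD1 had neither their highest nor their lowest value there. The share of all genes with each order was not counted, and the all-gene medians of 0.08 and -0.09 lean toward a highest value in oxamate. Of the other 12, 4 were above the all-gene median in oxamate against control and 8 in oxamate+lactate against oxamate. Of 1117 other genes over the floor with an E-box in a window, the median ratio was 0.14 for oxamate against control, -0.12 for oxamate+lactate against oxamate and 0.02 for oxamate+lactate against control, against 0.08, -0.09 and -0.01 for all genes. The 2 sets were not matched in GC content, with which the ratios varied, and all genes include some without a window. The part of GC content in these medians was not tested.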
